A study of Mus musculus with 10 samples.

Results

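The genes described here are 35 components, regulators and receptors of complement, coagulation and plasminogen activation, chosen by symbol from the 55421 genes of a count table of wounded mouse skin. All 35 symbols were found once in the table, and all 35 passed the filter on low counts that left 18509 genes for testing. The tissue came from excisional ulcers cut surgically in the skin of db/db mice, which lack the long leptin receptor and become obese and diabetic, and was collected after 7 days of administration. One group of 5 libraries (saline 1 to 5) came from ulcers given saline, and the other group of 5 (ointment 1 to 5) from ulcers given saline and Fu Huang ointment, a topical preparation. Both groups therefore share the db/db background, the wound and the saline, and the labels give no unwounded or non-diabetic tissue, no age or sex of the animals, and no statement that each library is a separate animal. P-values thus measure the spread between these libraries, which may be partly technical.

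Complement is a cascade of plasma and tissue proteins that marks microbes and dying cells, recruits leukocytes and punctures membranes. It starts from C1q with its proteases C1r and C1s (the classical pathway), from collectins with MASP proteases (the lectin pathway), or from C3 itself amplified by factors B and D and properdin (the alternative pathway). Coagulation in a wound starts when tissue factor meets factor VII and activates factor X, and it ends in fibrin cross-linked by factor XIII, which plasmin then removes after urokinase or tissue plasminogen activator has released it from plasminogen. The liver makes most of these proteins for the blood, while macrophages, fibroblasts, fat cells, endothelium and keratinocytes make many of them locally in skin.

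Library totals ran from 47.8 M to 62.9 M counts (M, mega). Levels below are CPM, the counts of a gene per M counts of its library with totals scaled by the TMM method of edgeR, as mean ± SD over 5 libraries or as single libraries. Fold changes are ointment against saline, and a gene is said to have risen or fallen only where edgeR's quasi-likelihood test gave an adjusted p under 0.05 over all 18509 genes. Of 8 liver markers, 7 averaged under 1 CPM and the 8 summed to 1.87 to 6.26 CPM per library. Fibroblast, keratinocyte, macrophage and endothelial markers were all present at 1 CPM or more.

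Of the 35 genes, Cfd, which encodes complement factor D (adipsin), fell, F7, which encodes coagulation factor VII, rose, and 33 did not pass. These 2 calls are 5.71% of the 35, beside 1.67% of all tested genes called in either direction (0.692% higher and 0.983% lower). The groups did not overlap in Cfd, F7 and C7, which are 8.57% of the 35, beside 6.54% of all tested genes (3.11% higher and 3.44% lower). An unadjusted p under 0.05 was reached by 14 of the 35 (8 lower and 6 higher with ointment), which is 40.0%, beside 17.1% of all tested genes (8.59% higher and 8.56% lower). The 8 with lower values were all complement genes (C1ra, C1s1, C2, C3, C4b, Cfd, C7 and C5ar2). The 6 with higher values were the complement gene Cfp and the coagulation and fibrinolysis genes F3, F7, F10, F13a1 and Plau. Positive fold changes numbered 20 of the 35, beside 49.7% of all tested genes, with 9 of 22 among the complement genes and 11 of 13 among the rest. The median log2 fold change was -0.26 over the 22 complement genes and 0.49 over the 13 coagulation and fibrinolysis genes, against -0.0025 over all tested genes. Other genes of these pathways did not share this split: medians were -0.0029 over 25 complement genes and -0.065 over 27 coagulation genes. Of these, 12 of the 25 and 13 of the 27 had positive fold changes. With 1 library left out, Cfd was called only without ointment 2 (adjusted p 0.0208 to 0.0948 over the 10 fits) and F7 only without saline 4 or ointment 4 (0.0343 to 0.0856), while the direction of both held in each fit.

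**Figure D1:**
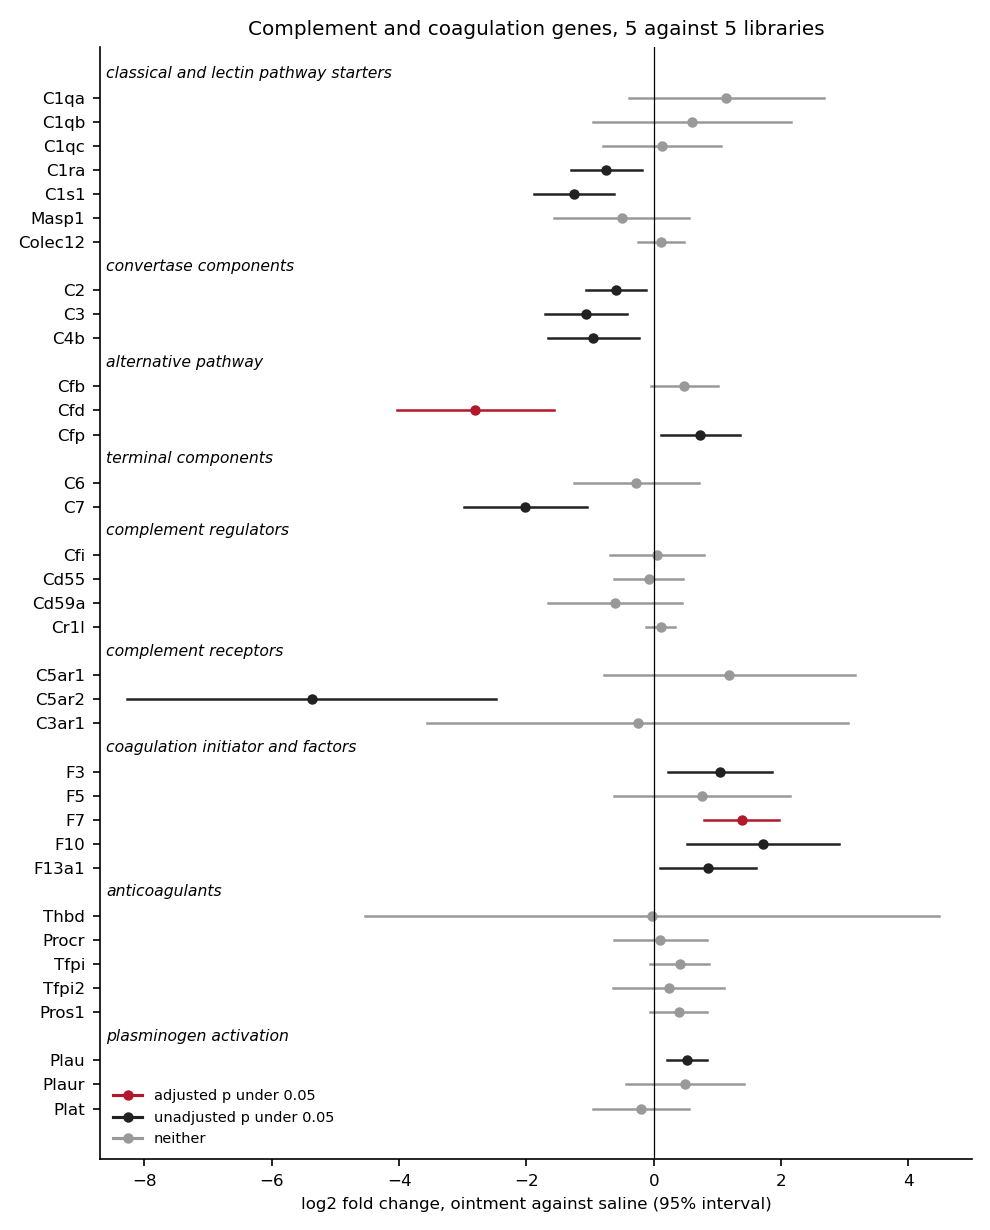
Log2 fold change of each of the 35 genes (x axis, ointment against saline) with its 95% interval, grouped by role (y axis). Cfd at -2.80 and F7 at 1.38 are the 2 genes that passed the adjusted threshold, and all 5 coagulation factors lie to the right of 0 while C2, C3 and C4b lie to the left.

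The promoters of the 3 genes without overlap between the groups, and of F10, which lies next to F7, are shown because these genes show the clearest differences or share a locus. RefSeq (GRCm38.p6) promoters were available for 25 of the 35 genes, each with 250 bases before and 50 after the annotated start. They are printed on the strand of the gene, at chr10:79890603-79890902 (plus) for Cfd, chr8:13025784-13026083 (plus) for F7, chr8:13037058-13037357 (plus) for F10 and chr15:5063724-5064023 (minus) for C7. Capitals mark matches on either strand to the CCAAT box (CCAAT), the TATA box (TATAAA), the AP-1 motif (TGANTCA), the E-box motif (CACGTG), the NF-kB motif (GGGNNNNNCC), the STAT motif (TTCNNNGAA) or the nuclear receptor hexamer (AGGTCA). None of the matches overlapped each other.
Cfd: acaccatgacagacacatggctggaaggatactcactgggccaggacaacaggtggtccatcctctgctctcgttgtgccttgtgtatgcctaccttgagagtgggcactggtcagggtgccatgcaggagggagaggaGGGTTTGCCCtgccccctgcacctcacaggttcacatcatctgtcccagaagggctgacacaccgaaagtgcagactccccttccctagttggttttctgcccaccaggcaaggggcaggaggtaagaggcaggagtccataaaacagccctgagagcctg
F7: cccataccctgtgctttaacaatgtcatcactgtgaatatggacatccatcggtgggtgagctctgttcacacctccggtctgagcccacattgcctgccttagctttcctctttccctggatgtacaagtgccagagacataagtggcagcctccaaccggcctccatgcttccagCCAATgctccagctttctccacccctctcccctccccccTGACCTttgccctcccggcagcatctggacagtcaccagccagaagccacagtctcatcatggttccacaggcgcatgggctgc
F10: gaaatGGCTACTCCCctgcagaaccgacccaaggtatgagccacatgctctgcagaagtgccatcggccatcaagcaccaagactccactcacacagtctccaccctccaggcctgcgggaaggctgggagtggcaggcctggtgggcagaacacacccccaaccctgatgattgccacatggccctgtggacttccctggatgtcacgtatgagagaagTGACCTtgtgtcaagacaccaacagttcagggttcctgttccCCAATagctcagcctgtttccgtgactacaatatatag
C7: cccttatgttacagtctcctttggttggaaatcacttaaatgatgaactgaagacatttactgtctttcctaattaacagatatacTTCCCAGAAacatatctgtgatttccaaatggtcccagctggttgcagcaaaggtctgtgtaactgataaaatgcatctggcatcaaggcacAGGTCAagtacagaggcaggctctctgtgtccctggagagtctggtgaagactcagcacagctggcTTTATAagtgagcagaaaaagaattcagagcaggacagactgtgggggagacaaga
The F7 and F10 promoters both held the nuclear receptor hexamer, as TGACCT, at -34 to -29 and -30 to -25 from the start, and 16.3% of 32851 mouse promoters of this length held it on either strand. C7 held the same hexamer at -72 to -67, a TATAAA match at -6 to -1 and a STAT match at -164 to -156, letters found in 13.6% (TATAAA) and 8.3% (STAT) of promoters. Both F7 (at -73 to -69) and F10 (at 12 to 16, after the start) held CCAAT, found in 37.4% of promoters. The Cfd match was GGGTTTGCCC at -111 to -102 and F10 held GGCTACTCCC at -245 to -236, both of a pattern loose enough to occur in 50.8% of promoters. These are letter matches only and show nothing about binding.

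Per kilobase of exon, the C1q chain genes and the alternative pathway genes had the highest levels of the 35. C1qb averaged 446 CPM per kb over the 10 libraries, C1qa 278, Cfd 240, C1qc 228, Cfp 153 and Cfb 151. C1s1 (109), C3 (98.0), Pros1 (60.8) and F13a1 (57.3) followed. At the low end were C7 at 1.56 CPM per kb, Cfi at 0.659, C5ar2 at 0.612 and C3ar1 at 0.327. The order among neighbours is loose: within the saline group alone C1qb ranged from 87.9 to 685 CPM and C1qa from 73.2 to 454 CPM, so the 3 C1q genes cannot be ranked beyond their spread. C7, Cfi, C5ar2 and C3ar1 lie well below the C1q genes in every library.

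**Figure D2:**
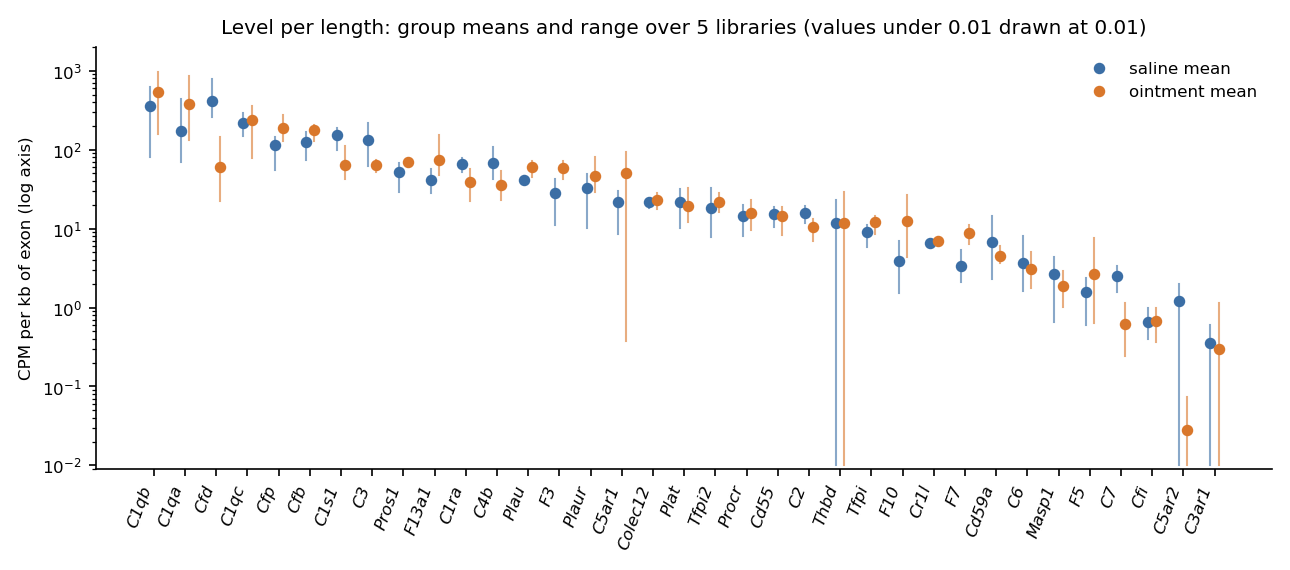
Mean level of each gene per kilobase of exon (y axis, log scale) in the saline (blue) and ointment (orange) groups, with lines from the lowest to the highest of 5 libraries, ordered by overall mean. Cfd drops from 419 CPM per kb with saline to 60.2 with ointment, and the lines of C5ar1, C5ar2, C3ar1 and Thbd are far longer than those of genes at like levels.

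In the alternative pathway, Cfd fell while Cfp and Cfb had positive fold changes that did not pass. Factor D, the serine protease that cleaves factor B bound to C3b, is made mainly by fat cells. Cfd was 236, 299, 734, 323 and 339 CPM in saline 1 to 5 and 20.6, 132, 24.9, 38.4 and 61.5 CPM in ointment 1 to 5. Every ointment library was below every saline library, with ointment 2 the highest of its group and saline 3 the highest of the other. The means were 386 ± 198 and 55.5 ± 45.6 CPM (SD, n = 5), a 6.96-fold decrease (log2 change -2.80, SE 0.56, 95% interval -4.04 to -1.56, edgeR adjusted p = 0.0384).

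The summed fat cell markers were not lower with ointment. The 8 adipocyte markers summed to 536 to 1527 CPM in the saline libraries and 1157 to 2107 CPM in the ointment libraries, and Cfd equalled 36.9% to 48.1% of that sum with saline and 0.979% to 6.85% with ointment. Most of the sum was Fabp4, a fatty acid binding protein gene that endothelium and macrophages also express (613 and 1239 CPM as group means). Lep, which encodes leptin, rose from a mean of 8.71 to 156 CPM (log2 change 4.16, edgeR adjusted p = 0.0347). Ointment 2, at 8.45 CPM, lay within the saline range of 2.96 to 15.9 CPM, while ointment 1, 3, 4 and 5 had 111 to 261 CPM. Adipoq, which encodes adiponectin, had a value in the same direction as Cfd, 46.1 to 200 CPM with saline against 25.1 to 58.7 CPM with ointment, and did not pass (-1.29, adjusted p = 0.137). Of the 8 markers 6 had positive and 2 negative fold changes. In such tissue RNA, fewer cells of a type and less RNA per cell cannot be told apart, and the part of fat cell number in the Cfd difference was not tested.

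**Figure D3:**
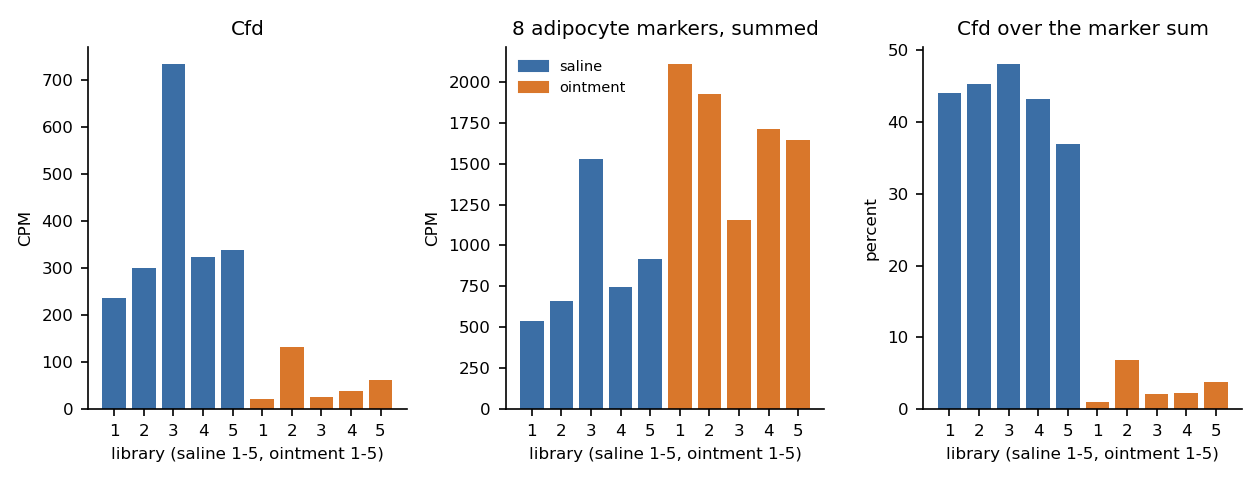
Cfd (left, CPM), the sum of 8 adipocyte markers (middle, CPM) and Cfd as a percentage of that sum (right) in each library, saline in blue and ointment in orange. The percentage is 36.9 or more in every saline library and 6.85 or less in every ointment library. The marker sums overlap only in that saline 3 (1527 CPM) exceeds the lowest ointment library (1157 CPM).

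The other alternative pathway genes had positive fold changes. Cfp encodes properdin, a stabiliser of the C3 convertase that leukocytes release. It was 95.6, 204, 254, 192 and 250 CPM in saline 1 to 5 and 282, 343, 324, 224 and 481 CPM in ointment 1 to 5. Only ointment 4 fell within the saline range, and the difference did not pass (log2 change 0.73, SE 0.28, edgeR adjusted p = 0.213). The 12 macrophage markers summed to 2556 to 4914 CPM with saline against 5849 to 9784 CPM with ointment, without overlap. Most of the sum was Lyz2 (2255 and 4552 CPM as group means), which was 594 CPM in saline 3. In the other saline libraries Lyz2 was 2395 CPM or more. Cfp was 2.62% to 9.96% (saline 3) of the macrophage marker sum with saline and 3.83% to 4.92% with ointment. The part of macrophage number in the Cfp level was not tested. Factor B (Cfb), the substrate of factor D and the catalytic part of the alternative C3 convertase, was 356 ± 116 CPM with saline against 497 ± 85.1 CPM with ointment (0.48, adjusted p = 0.331). Its exons lie inside the read-through gene Gm20547, which shares 75.5% of Cfb's 31-base words and was listed at 224 CPM in saline 5 and at 0 in saline 1 to 4, so the saline 5 value of Cfb (263 CPM) is uncertain. With Gm20547 added, the ranges were 212 to 487 CPM and 366 to 578 CPM.

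The proteases of the classical pathway (C1ra and C1s1) and C2, C3 and C4b had lower values with ointment, and none passed. C1s1, the protease that cleaves C4 and C2, was 434, 504, 590, 309 and 573 CPM in saline 1 to 5 and 353, 158, 185, 134 and 180 CPM in ointment 1 to 5. Ointment 1 alone reached the saline range, above saline 4 (log2 change -1.25, SE 0.28, edgeR adjusted p = 0.0584). Of 10 edgeR fits with 1 library left out, C1s1 was called only in that without ointment 1 (-1.55, adjusted p = 0.0261). In the others the adjusted p reached 0.131. C1ra, whose product activates C1s, was 155, 222, 237, 159 and 196 CPM with saline against 171, 92.3, 67.7, 150 and 99.1 CPM with ointment (-0.74, SE 0.25, adjusted p = 0.167). In 4 of the 5 ointment libraries C1ra was below every saline library. C1ra shares 56.9% of its 31-base words with the copy C1rb, and C1s1 33.5% with C1s2, so reads could have been split between them. The copies were lower expressed (C1rb 39.9 ± 7.18 against 31.9 ± 11.6 CPM, C1s2 26.3 ± 11.4 against 17.8 ± 8.94 CPM) and did not pass either.

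C3, the hub on which all pathways converge, was 317, 644, 1116, 522 and 812 CPM in saline 1 to 5 and 386, 266, 317, 318 and 341 CPM in ointment 1 to 5. The ointment libraries were closely grouped, and saline 1 alone of the saline libraries lay among them (log2 change -1.07, SE 0.29, edgeR adjusted p = 0.0957). Of 10 edgeR fits with 1 library left out, C3 was called only in that without saline 1 (-1.26, adjusted p = 0.0444). In the others the adjusted p reached 0.183. C4b, which forms the classical convertase with C2, was 265, 410, 620, 240 and 399 CPM with saline against 252, 162, 148, 310 and 131 CPM with ointment (-0.95, SE 0.32, adjusted p = 0.165). It shares 48.3% of its 31-base words with C4a, which was listed at only 7.52 ± 2.81 and 5.70 ± 2.73 CPM. C2 was 68.8, 64.4, 76.0, 50.01 and 45.9 CPM with saline against 43.9, 31.03, 49.6, 50.6 and 27.4 CPM with ointment (-0.59, SE 0.21, adjusted p = 0.189). C2 shares 40.2% of its 31-base words with the read-through gene Gm20547, so its saline 5 value is uncertain too, and with Gm20547 added its saline range was 50.01 to 269.6 CPM. For C4b and C2 the groups overlapped in several libraries. The 8 fibroblast markers, most of the sum from collagen genes, summed to 36021 to 54766 CPM with saline against 18348 to 59210 CPM with ointment, so the groups overlapped. C1s1 amounted to 0.858% to 1.21% of that sum with saline and 0.333% to 0.982% with ointment, and C3 to 0.753% to 2.30% and 0.651% to 1.86%. The part of fibroblast number in these values was not tested.

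**Figure D4:**
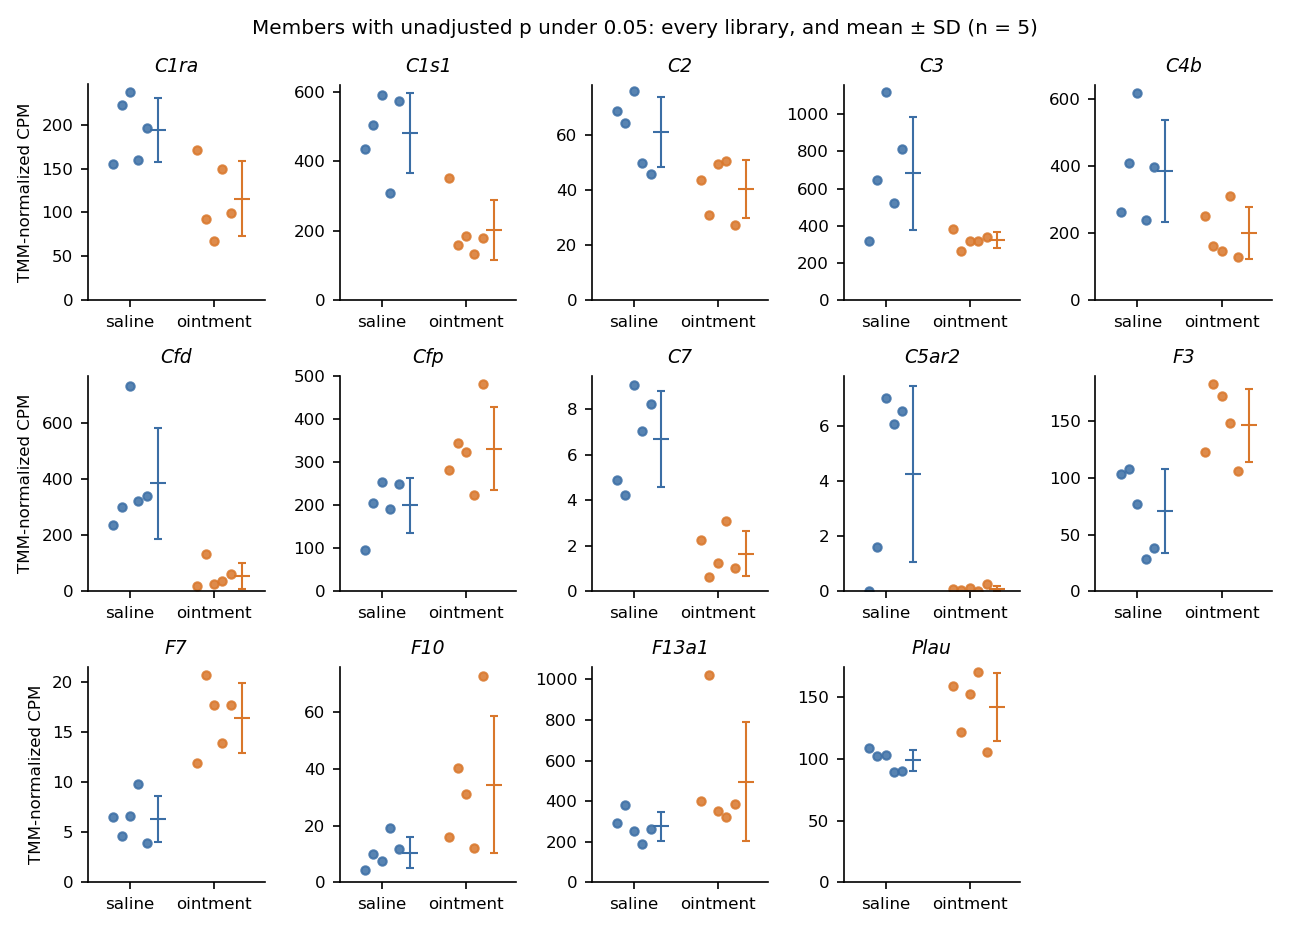
TMM-normalized CPM (y axes) in each saline (blue) and ointment (orange) library for the 14 genes with an unadjusted p under 0.05, with mean ± SD (n = 5) beside the points. The groups are separate for Cfd, C7 and F7, and single libraries such as ointment 1 in C1s1 and ointment 2 in F13a1 stand away from their groups.

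The C1q chains, which macrophages assemble into the recognition unit of the classical pathway, did not pass, and their values moved in steps between libraries. C1qa was 73.2, 109, 127, 454 and 138 CPM in saline 1 to 5 and 167, 139, 894, 645 and 140 CPM in ointment 1 to 5. C1qb was 87.9, 106, 590, 459 and 685 CPM with saline against 824, 176, 1048, 704 and 173 CPM with ointment. C1qc was 287, 400, 478, 378 and 556 CPM with saline against 152, 695, 206, 552 and 695 CPM with ointment. Although the 3 genes lie side by side on chromosome 4 (136880129 to 136898803), they did not share 1 order of libraries: ointment 3 was the highest for C1qa and C1qb and among the 2 lowest for C1qc. The ratio of C1qb to C1qa was 0.976 to 1.26 in 7 libraries and 4.65 to 4.97 in saline 3, saline 5 and ointment 1, with none between. The ratio of C1qb to C1qc was 0.249 to 0.306 in 4 libraries, 1.22 to 1.28 in 4 and 5.09 to 5.42 in 2. These bands were noticed in the values, occurred in both groups, and their cause was not tested. None of the 3 passed (C1qa 1.14, SE 0.69, adjusted p = 0.455; C1qb 0.60, SE 0.70, adjusted p = 0.744; C1qc 0.13, SE 0.42, adjusted p = 0.924, all by edgeR), and their intervals reach from -0.96 to 2.67 on the log2 scale.

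**Figure D5:**
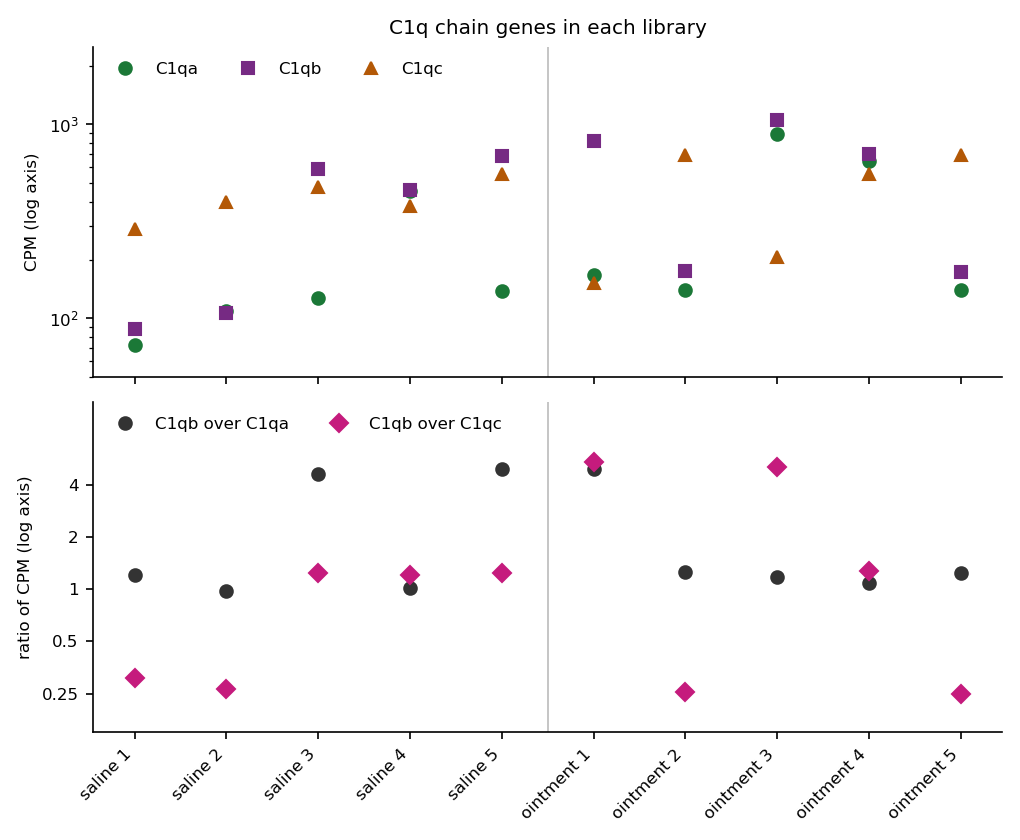
Upper panel, CPM (log axis) of the 3 C1q chain genes in each library. Lower panel, the ratios of C1qb to C1qa and of C1qb to C1qc (log axis), which fall into separate bands near 0.25, 1 and 5 with no library between them.

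The remaining starters did not pass. Masp1, a protease of the lectin pathway, was 21.4, 43.3, 6.50, 35.8 and 23.1 CPM with saline against 18.4 ± 8.14 CPM with ointment (log2 change -0.50, edgeR adjusted p = 0.675). Colec12, a scavenger collectin, was 188 ± 19.8 and 204 ± 45.2 CPM (0.11, 95% interval -0.24 to 0.47).

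Of the terminal components, which build the membrane attack complex, C7 was 4.88, 4.23, 9.06, 7.04 and 8.24 CPM in saline 1 to 5 and 2.24, 0.654, 1.26, 3.08 and 1.02 CPM in ointment 1 to 5. The groups did not overlap and the means differed 4.05-fold, yet the adjusted p stayed just outside the threshold (log2 change -2.02, SE 0.43, edgeR adjusted p = 0.0522). Of 10 edgeR fits with 1 library left out, C7 was called only in that without ointment 4 (-2.36, adjusted p = 0.0329). In the others the adjusted p reached 0.127. C6, the more abundant of the pair per length, was 5.71, 7.91, 28.4, 9.98 and 13.9 CPM with saline against 11.1, 6.24, 9.05, 18.1 and 10.1 CPM with ointment, overlapping (-0.27, adjusted p = 0.833). Its direction turned without saline 3 (0.21).

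The membrane and fluid-phase regulators, which stop the cascade on host cells, did not pass. Cd55, the most abundant of them per length (14.8 CPM per kb), was 79.7, 66.4, 92.0, 51.4 and 77.9 CPM with saline against 92.4, 40.2, 72.6, 88.9 and 54.4 CPM with ointment, fully overlapping (log2 change -0.08, 95% interval -0.62 to 0.46). Cr1l (Crry), a rodent regulator of convertases, had the narrowest interval of the 35 genes, at 67.3 ± 5.69 and 72.7 ± 7.35 CPM (0.11, 95% interval -0.12 to 0.34). Cd59a, an inhibitor of the membrane attack complex, had 18.4 and 25.8 CPM in saline 1 and saline 4 and 4.21 to 7.17 CPM in saline 2, 3 and 5, against 6.63 to 10.8 CPM with ointment (-0.61, edgeR adjusted p = 0.583). Cfi, the protease that inactivates C3b, was low at 1.44 ± 0.520 and 1.49 ± 0.486 CPM.

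The anaphylatoxin receptor genes did not pass and had uneven values. C5ar1, the receptor for C5a on neutrophils and macrophages, was 22.1, 77.1, 60.5, 55.9 and 67.3 CPM in saline 1 to 5 and 0.980, 176, 134, 91.7 and 241 CPM in ointment 1 to 5. In 4 ointment libraries it exceeded every saline library, while ointment 1 had 46 counts where the others had 5120 or more (log2 change 1.19, SE 0.89, edgeR adjusted p = 0.57). The 10 neutrophil markers summed to 852 to 2729 CPM with saline against 1689 to 7824 CPM with ointment, and ointment 1, at 2285 CPM, was within the range of its group. Without ointment 1 the estimate was 1.51 (adjusted p = 0.109). C5ar2, another C5a receptor gene, next to C5ar1 on chromosome 7, had 1, 101, 425, 385 and 396 counts in saline 1 to 5 and 4, 2, 7, 0 and 14 counts in ointment 1 to 5. Saline 1 overlapped the ointment libraries, and the gene did not pass (log2 change -5.38, SE 1.30, edgeR adjusted p = 0.0723). Of 10 edgeR fits with 1 library left out, C5ar2 was called only in that without saline 1 (-5.71, adjusted p = 0.0404). In the others the adjusted p reached 0.152. C3ar1 was listed at 0 in saline 3, ointment 2 and ointment 4 and at 0.716 to 4.92 CPM elsewhere (-0.25, adjusted p = 0.962).

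The coagulation factors had positive fold changes in all 5 genes. Factor VII, the protease that tissue factor binds, is made mainly by the liver, whose markers were nearly absent here. F7 was 6.56, 4.61, 6.63, 9.82 and 3.90 CPM in saline 1 to 5 and 11.9, 20.7, 17.7, 13.9 and 17.8 CPM in ointment 1 to 5. Every ointment library exceeded every saline library, the closest being ointment 1 and saline 4. The means were 6.30 ± 2.30 and 16.4 ± 3.49 CPM (SD, n = 5), a 2.60-fold increase (log2 change 1.38, SE 0.27, 95% interval 0.79 to 1.97, edgeR adjusted p = 0.0345). As a share of the summed macrophage markers, F7 was 0.0838% to 0.259% with saline and 0.171% to 0.280% with ointment, ranges that overlap. The 0.259% was in saline 3, where Lyz2, most of that sum, was low. The part of macrophage number in the F7 increase was not tested.

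F10, the gene of factor X, lies directly beyond F7 on the same strand of chromosome 8 (13037308 to 13056676, against 13026034 to 13035809 for F7). It was 4.21, 10.2, 7.49, 19.0 and 11.7 CPM in saline 1 to 5 and 16.1, 40.4, 31.2, 12.1 and 72.8 CPM in ointment 1 to 5. Ointment 4 and ointment 1 lay within the saline range and ointment 5 was the highest (log2 change 1.71, SE 0.54, adjusted p = 0.137). F3, the gene of tissue factor, the membrane trigger of coagulation, was 103, 108, 77.1, 28.4 and 37.8 CPM with saline against 123, 183, 173, 148 and 106 CPM with ointment. Only ointment 5 overlapped the saline range, and the difference did not pass (1.05, SE 0.37, adjusted p = 0.178). F13a1, the transglutaminase subunit that cross-links fibrin and a marker of some macrophages, was 292, 382, 255, 188 and 261 CPM with saline against 403, 1022, 349, 324 and 388 CPM with ointment (0.85, SE 0.34, adjusted p = 0.232). Ointment 2 stood apart from the rest of its group, and without it the estimate was 0.41. F5, the cofactor of factor X, was 11.6 ± 4.94 and 19.6 ± 20.8 CPM, with 56.2 CPM in ointment 5 (0.76, adjusted p = 0.609). Without ointment 5 the estimate was -0.15.

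The anticoagulants did not pass. Pros1 (protein S, the cofactor of activated protein C), the most abundant of them per length at 60.8 CPM per kb, was 205, 275, 215, 264 and 118 CPM with saline against 300, 294, 282, 283 and 251 CPM with ointment. In 4 of 5 ointment libraries it exceeded every saline library (log2 change 0.39, SE 0.20, edgeR adjusted p = 0.367). Tfpi, the inhibitor of tissue factor with factor VII, was 49.4 ± 12.3 and 65.7 ± 13.4 CPM (0.41, adjusted p = 0.355). Its relative Tfpi2 was 32.1 ± 19.1 and 37.9 ± 8.997 CPM (0.24, adjusted p = 0.836). The protein C receptor gene Procr was 29.7 ± 11.95 and 32.0 ± 10.8 CPM (0.11, adjusted p = 0.922). Thbd, the gene of thrombomodulin, was listed at 0 in saline 1, saline 4, ointment 1 and ointment 5 and at 52.6 to 108 CPM in the other 6 libraries, so its log2 fold change of -0.02 (95% interval -4.53 to 4.48) says nothing of a difference. The 8 endothelial markers summed to 662.5 (saline 1), 625.3 (saline 4), 687 (ointment 1) and 395 CPM (ointment 5) in the libraries without Thbd. In the other 6 libraries these markers summed to 403.3 to 899.5 CPM, so the ranges overlapped.

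Of the plasminogen activation genes, Plau, the gene of urokinase, was 109, 102, 103, 89.7 and 90.4 CPM in saline 1 to 5 and 159, 122, 153, 171 and 106 CPM in ointment 1 to 5. Only ointment 5 fell within the saline range, and the 1.44-fold difference did not pass (log2 change 0.52, SE 0.14, edgeR adjusted p = 0.0966). Its receptor gene Plaur was 85.3 ± 39.1 and 120 ± 56.5 CPM, with 26.5 CPM in saline 1 and 212 CPM in ointment 5 (0.49, adjusted p = 0.626). Plat, the gene of tissue plasminogen activator, was 137 ± 52.5 and 120 ± 50.9 CPM (-0.20, 95% interval -0.96 to 0.56).

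Among 73 other genes of these pathways, 52 were tested, 2 rose, 1 fell and 49 did not pass, which is 5.77% called beside the 1.67% of all tested genes. All 3 were from the complement list. Itgb2, the beta chain of the iC3b receptors on leukocytes, was 73.7, 100.8, 111, 97.4 and 73.8 CPM in saline 1 to 5 and 206, 239, 207, 164 and 313 CPM in ointment 1 to 5, without overlap (log2 change 1.31, SE 0.19, edgeR adjusted p = 0.0159). It was called whichever library was left out. Cd5l, a protein secreted by macrophages, rose from 3.42 ± 2.16 to 23.7 ± 16.0 CPM (2.79, SE 0.58, adjusted p = 0.0457). The part of leukocyte number in the Itgb2 and Cd5l increases was not tested. Csmd1, a membrane regulator of complement, fell from 2.07 ± 0.812 to 0.685 ± 0.107 CPM (-1.59, SE 0.33, adjusted p = 0.0452). With 1 library left out, Cd5l was called only without ointment 2 and Csmd1 only without saline 2. Next by p were C1rl (0.75, adjusted p = 0.0848), Clu, the gene of clusterin (-1.03, adjusted p = 0.134), Itgam, the alpha chain of complement receptor CR3 (1.37, adjusted p = 0.144), and Vsig4, a macrophage receptor for C3b (1.14, adjusted p = 0.149), none of which passed. Of the 27 other coagulation genes tested, none passed, with 3 (11.1%) at an unadjusted p under 0.05, beside 17.1% of all tested genes. Of the 25 other complement genes tested, 10 (40.0%) had an unadjusted p under 0.05. Closest among the coagulation genes were F2r, a thrombin receptor gene (5.31, adjusted p = 0.154), Vwf (-0.82, adjusted p = 0.168) and Tgm2 (1.08, adjusted p = 0.181). Itgam is also in the macrophage marker list and Vwf in the endothelial one. F2r was highest in ointment 3 at 69.3 CPM, with 0 to 0.981 CPM in all saline libraries and 0 in ointment 2.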

How the data were processed

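RNA of ulcer tissue was sequenced in 10 libraries. A SMARTer kit for mRNA was used (per the labels' protocols), with no statement that strand is kept, so overlapping and antisense genes cannot be told apart. The authors deposited 1 whole number per gene and library, without normalization and named raw counts. Per the submitters' processing notes the genome was GRCm38 (mm10). Aligner and counting program: not given in the sources used here. Of the deposited values from 1 to 100, 33.4% were multiples of 4, where even spacing gives 25%, and some genes switch between levels or to 0 across libraries. The deposited values were therefore treated as estimated counts, and 1 count may not be 1 read. Being whole, they needed no rounding.

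Groups came from sample titles. Counts were fitted with edgeR 4.0.16 (R 4.3.3; TMM, filterByExpr with minimum count 10 and total 15, robust quasi-likelihood F-test, group only), with Benjamini-Hochberg adjustment over 18509 genes, two-sided, threshold 0.05. Intervals are 95%. Alternatives were run with edgeR, DESeq2 1.42.0 and limma 3.58.1. In simulated counts edgeR recovered 28% of the 2-fold and 82% of the 4-fold changes, with 3.51% of 114 calls false. Those counts were drawn with edgeR's own dispersion estimates and without the switches in level. Exon lengths, positions and shared 31-base words came from GENCODE mouse release 21, and promoters from RefSeq GRCm38.p6. The members, lists and tests were chosen with earlier results of these data known. Every member is accounted for. Library values were given for members with an unadjusted p under 0.05, without overlap, or highest per length in their role, and of the other pathway genes those called and up to 4 more per list by p (1 of these is not reported here); other library values were chosen after they were seen.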

Additional observations from a re-analysis of the deposited data

Results flagged for a closer look

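In each gene and group of 5 libraries, the highest or lowest library was compared with the rest by the gap to its nearest neighbour over the range of the group. The rule is set to mark about 5% of groups by chance, a rate that may not hold for CPM without a log scale. Of 70 groups 6 were marked, each for its highest library. C1qa was 454 CPM in saline 4, against 138 CPM in the next saline library. Cfd was 734 CPM in saline 3, against 339 CPM in the next. Its call was lost without saline 3 (log2 fold change -2.45, adjusted p = 0.0747 by edgeR). The call was also lost without any other single library except ointment 2. C1s1 was 353 CPM in ointment 1, against 185 CPM in the next. C3ar1 was 4.92 CPM in ointment 1, against 0.776 CPM in the next. F5 was 56.2 CPM in ointment 5, against 14.3 CPM in the next. F13a1 was 1022 CPM in ointment 2, against 403 CPM in the next.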

How the results depend on the processing

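The library numbers did not pair the groups: same-numbered libraries correlated at -0.0772 to 0.0562, and 0 of 5 saline libraries correlated best with its own number. With the replicate number as a block, 0 of the 35 genes, 0 of the other pathway genes and 0 of all tested genes were called (Cfd adjusted p = 0.169, F7 adjusted p = 0.198 by edgeR).

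The 35 genes held 2 calls in edgeR, 8 with the DESeq2 Wald test (C1s1, C3, C5ar2, C7, Cfd, F7, F10 and Plau), 4 with limma voom (C1s1, C7, Cfd and F7), 3 with library sizes alone (C1s1 added, adjusted p = 0.0487), 3 with values divided by 4 (C7 added, adjusted p = 0.0429), 1 with no filter on low counts (F7) and 0 to 2 with 1 library left out. The other pathway genes held 3 calls, 8 with DESeq2, 1 with voom, 1 with no filter and 1 to 2 with 1 library left out. All tested genes held 310 calls, 347 with values divided by 4, 1677 with DESeq2 and 102 (without ointment 3) to 422 (without ointment 4) with 1 library left out. In simulated counts DESeq2 made 218 calls, of which 31.7% were false, and edgeR 114, of which 3.51% were false. Those counts followed edgeR's own dispersion estimates and lacked the switches in level, so these shares cannot be carried over to the calls above.

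The sign of a fold change turned in 28 gene and setting pairs over the 35 genes, none of them Cfd or F7, while 633 pairs kept both direction and side of the threshold. The log2 fold change turned for C1qc with voom (-0.28), with the block (-0.09) and without ointment 2 or ointment 5 (-0.07 each). It turned for C3ar1 without ointment 2 (0.07), ointment 4 (0.09) or saline 2 (0.06), for C5ar1 with voom (-0.06) and for C6 without saline 3 (0.21). Cd55 turned without ointment 2 (0.07), ointment 5 (0.00) or saline 3 (0.01), and Cfi with library sizes alone (-0.00) and without ointment 3 (-0.12), saline 1 (-0.00), saline 2 (-0.00) or saline 3 (-0.09). F5 turned without ointment 5 (-0.15), and Procr without ointment 2 (-0.07), saline 4 (-0.06) or saline 5 (-0.05). Thbd turned with voom (0.84), with the block (0.04) and without ointment 1 (0.30), ointment 5 (0.30), saline 2 (0.39), saline 3 (0.16) or saline 5 (0.18). With 1 library left out, the log2 fold changes of these genes ran from -0.07 to 0.35 in C1qc, -2.0 to 0.09 in C3ar1, -0.52 to 0.21 in C6, -0.12 to 0.24 in Cfi, -0.20 to 0.07 in Cd55, -0.15 to 1.02 in F5, -0.70 to 0.39 in Thbd and -0.07 to 0.25 in Procr. The cause of these changes was not tested. Counts were low in C5ar2, C3ar1, Cfi and C7, of which C7 reached 548 counts at most. The signs of C5ar2 and C7 held in each setting that tested them, which were 18 of the 20 alternatives for C5ar2 and 19 for C7. Neither was tested where a mean of at least 5 CPM was required.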

Other observations

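Sorted by level, neighbouring libraries differed by at least 2.5-fold in 7 of 31 of these genes averaging 5 CPM or more (22.6%), beside 11.3% of 12303 genes at that level. A single library stood apart in C5ar1, F5, F13a1 and Plaur, while the step divided the libraries 7 to 3 in C1qa and 4 to 6 in C1qb and Thbd. The largest step was 2.28-fold in Cfd, 1.51-fold in F7 and 1.82-fold in C7.

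Cfd over Cfb, the protease over its substrate, was 0.690 to 1.58 with saline and 0.0357 to 0.361 with ointment. F3 over Tfpi, the trigger over its inhibitor, was 0.466 to 2.49 with saline and 1.51 to 3.92 with ointment. The 6 platelet and megakaryocyte markers summed to 107 to 239 CPM with saline and 232 to 728 CPM with ointment, with Gp9, Gp1bb and Treml1 averaging under 1 CPM. Pf4 made most of that sum (156 and 364 CPM as group means). Of the 4 platelet markers tested, 3 had positive and 1 a negative fold change, and none passed. Ppbp had higher values with ointment, without overlap (6.06 and 67.6 CPM as means, log2 fold change 3.48). Itga2b had lower values, also without overlap (11.9 and 8.56 CPM as means, log2 fold change -0.48). The 7 keratinocyte markers summed to 18028 to 25369 CPM with saline and 12429 to 20523 CPM with ointment. The 5 mast cell markers summed to 173 to 405 CPM and 306 to 476 CPM.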
